A study of Mus musculus with 6 samples.

Results

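The AP-1 factors of tumor cells sorted from orthotopic colon tumors were examined through 9 genes, the FOS family (Fos, Fosb, Fosl1 and Fosl2), the JUN family (Jun, Junb and Jund), Atf3 and Maff. They were picked by gene name, with the difference between HIF-1α-KD and Mock cells already known, so that difference is given as a description, with no p-value for a member, and counts of members past a threshold are read in the same way. All 9 were found among the 22880 genes of the deposited table, and all 9 were among the 12014 genes kept by a filter on low counts. The RNA came from MC-38GFP cells, which are mouse colon adenocarcinoma cells labelled with green fluorescent protein (GFP) and grown in the cecum wall of C57BL/6 J mice. HIF-1α-KD cells carry a stable knockdown of the hypoxia-inducible factor HIF-1α, and Mock cells are their control. Cells of both groups had been transduced with pLKO.1-puro and were not passaged in vivo. Living cells that were GFP positive and negative for CD45 and CD31 were sorted after enzymatic digestion of the tumors, and poly-A RNA of 3 Mock and 3 HIF-1α-KD samples was sequenced. No source used here says that each library came from a tumor of its own, so the p-values given further on measure the spread between these libraries, which may be technical.

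AP-1 is a family of dimeric transcription factors whose basic leucine zipper (bZIP) binds short palindromic DNA motifs. FOS proteins need a partner, usually a JUN protein, whereas JUN proteins can also pair with themselves. Many AP-1 genes are immediate early genes, transcribed within minutes of mitogens, stress or tissue handling, and their short-lived mRNAs are cleared soon after.

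The sorted cells were checked first. Between 19845791 and 30809327 reads per library fell on genes. Hif1a, the targeted gene, reached 6914, 5424 and 4945 normalized counts in Mock 1 to 3, compared with 697.3, 3142 and 1928 in HIF-1α-KD 1 to 3, where a normalized count is the read count divided by 1 factor per library. HIF-1α-KD 1 thus had the lowest Hif1a level, 12.1% of the Mock mean, and HIF-1α-KD 2 the highest of its group, 54.5%. Of 7 epithelial and intestinal markers, 2 passed the filter, and Epcam, which encodes an epithelial adhesion protein, stayed between 2.31 and 37.45 normalized counts. Mock 3 stood apart in this list, with a summed level of 519.5 against 64.12 to 116.6 in the other libraries. The median log2 fold change of the 9 members minus that of all tested genes was −1.23 with all libraries, −1.21 without Mock 3, −1.47 without HIF-1α-KD 3, −0.94 without HIF-1α-KD 1 and −1.05 without Mock 2. Of 8 fibroblast and pericyte markers, 8 passed, with a summed level of 31700 to 51550 in Mock and of 24860 to 39970 in HIF-1α-KD, most of it Dcn. By limma 3 of the 8 were higher in HIF-1α-KD at an unadjusted p under 0.05, beside 7.04% of all tested genes. Among them were Cspg4 and Rgs5, for which every HIF-1α-KD library was above every Mock library, as for 10.4% of all tested genes. The summed level of the endothelial markers was 751 to 1727 in Mock and 1342 to 1778 in HIF-1α-KD, and that of the neutrophil markers 54.16 to 105.1 and 23.32 to 151.3. By limma 1 of the 4 tested endothelial markers was lower and 1 higher at an unadjusted p under 0.05. The shares of all tested genes were 5.69% and 7.04%. The part of these markers in the members' values was not tested. Leukocyte RNA was not absent: 8 of 9 macrophage and monocyte markers passed, and their summed level was 16530 in HIF-1α-KD 3, against 3094 and 3436 in the other HIF-1α-KD libraries and 5232 to 5667 in Mock. In bulk RNA such as this, fewer cells that express a gene and less of its RNA per cell cannot be told apart.

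The promoter stretches of the members with letters of the cAMP response element are shown because CREB and ATF proteins, which act on immediate early promoters, bind these letters. Windows of 300 bases, from 250 before to 50 after the start of the RefSeq transcript (build GRCm38.p6), matched 8 of the 9 members by symbol. The window of Jund lay 1210 bases from the nearest GENCODE start and was left out of the counts, which left 7. The 120 bases before the start are printed in the direction of the gene, with the letters TGACG, on either strand, or TGACNTCA in capitals. Where N is G the letters TGACNTCA also hold TGACG. For Atf3 the capitals mark TGACG on the opposite strand.
Fos: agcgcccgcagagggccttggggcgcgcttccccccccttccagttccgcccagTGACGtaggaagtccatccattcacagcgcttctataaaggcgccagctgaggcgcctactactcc
Fosb: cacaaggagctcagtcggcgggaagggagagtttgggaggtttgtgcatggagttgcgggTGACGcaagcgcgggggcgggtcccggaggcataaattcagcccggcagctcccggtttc
Jun: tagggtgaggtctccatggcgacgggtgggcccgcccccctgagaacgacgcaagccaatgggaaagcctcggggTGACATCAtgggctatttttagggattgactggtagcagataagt
Junb: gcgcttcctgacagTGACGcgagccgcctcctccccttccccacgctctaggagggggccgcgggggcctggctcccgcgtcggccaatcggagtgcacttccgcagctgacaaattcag
Atf3: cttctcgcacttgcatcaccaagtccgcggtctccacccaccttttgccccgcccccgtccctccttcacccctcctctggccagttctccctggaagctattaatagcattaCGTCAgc
These stretches lie at chr12:85473770-85473889 (+ strand, Fos), chr7:19310046-19310165 (− strand, Fosb), chr4:95052223-95052342 (− strand, Jun), chr8:84978749-84978868 (− strand, Junb) and chr1:191183334-191183453 (− strand, Atf3). The letters TGACG begin 66 bases before the start in Fos, 60 in Fosb, 106 in Junb and 7 in Atf3, and Fos holds them again 129 bases before its start. In Jun the longer motif begins 45 bases before the start. TGACG was in 4 of 7 member windows and in 20.8% of all 32851 windows, and TGACNTCA was in 1 of 7 and in 8.83% of all. The core of the hypoxia response element was searched in both of its forms. The form GCGTG was in 4 of 7 member windows (Fos, Fosb, Junb and Atf3) and in 32.4% of all, and the form ACGTG was in 0 of 7 and in 19.6% of all, while the distant window left out, that of Jund, holds ACGTG 2 times. The AP-1 site TGACTCA was likewise in 0 of 7, against 5.2% of all windows. The TATA box letters TATAAA were in 2 of 7, Fos and Junb, against 13.6% of all. Each motif was searched on both strands, and a match says only that the letters are there.

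Fos, the founding FOS protein and a classic immediate early factor, was the most variable member. Fos (ENSMUSG00000021250, chr12:85473890-85477273, + strand) reached 9478, 11390 and 5560 normalized counts in the 3 Mock libraries, with 343.4, 3343 and 4210 in HIF-1α-KD. The groups did not overlap, but HIF-1α-KD 1 stood far below the other libraries of its group, at 3.9% of the Mock mean against 37.9% and 47.8%. The mean was 8809 ± 2970 in Mock and 2632 ± 2030 in HIF-1α-KD (SD, n = 3), and the log2 fold change was −2.32 with a standard error of 0.82. All log2 fold changes here are HIF-1α-KD minus Mock on log2 of the normalized count plus 1. The spread of Fos within groups, an SD of 1.46 on the log2 scale, exceeded that of 99.2% of the tested genes.

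Fosb encodes a close relative of Fos that is induced by the same stimuli. Fosb (ENSMUSG00000003545, chr7:19302696-19310051, − strand) was at 1338, 2385 and 1344 normalized counts in Mock 1 to 3, with 125.5, 853.7 and 924.1 in HIF-1α-KD 1 to 3. It resembled Fos in that HIF-1α-KD 1 was far below HIF-1α-KD 2 and 3 and the groups did not overlap. The log2 fold change was −1.81 with a standard error of 0.68.

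Fosl1 and Fosl2 encode the FOS-related antigens FRA-1 and FRA-2, which lack the strong activation domain of Fos and respond later. Fosl1 (ENSMUSG00000024912, chr19:5447547-5455946, + strand) reached 2130, 2827 and 3733 normalized counts in the 3 Mock libraries, with 1453, 1336 and 2212 in HIF-1α-KD. HIF-1α-KD 3 was just above Mock 1, so the groups overlapped, and the log2 fold change was −0.80 with a standard error of 0.25. Fosl2 (ENSMUSG00000029135, chr5:32135801-32157842, + strand) was at 2158, 2023 and 2256 in Mock, with 981.3, 1059 and 1234 in HIF-1α-KD. It was the steadiest member, with every HIF-1α-KD library between 45.7% and 57.5% of the Mock mean. Its within-group SD of 0.13 on the log2 scale was above that of 11.8% of the tested genes, and its log2 fold change was −0.98 with a standard error of 0.15.

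Jun encodes the main partner of FOS proteins. Jun (ENSMUSG00000052684, chr4:95049034-95052222, − strand) was at 9142, 13110 and 9567 normalized counts in Mock 1 to 3, with 2686, 6022 and 6762 in HIF-1α-KD 1 to 3. The groups did not overlap, and HIF-1α-KD 1 was again the lowest library, at 25.3% of the Mock mean against 56.8% and 63.8%. The log2 fold change was −1.13 with a standard error of 0.33.

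Junb encodes a JUN protein that is also induced early and can restrain Jun, and Jund one that is expressed more constantly in many tissues. Junb (ENSMUSG00000052837, chr8:84974484-84978718, − strand) reached 1195, 3738 and 2515 normalized counts in the 3 Mock libraries, with 547.7, 1205 and 1149 in HIF-1α-KD. Mock 1, the low Mock library, was just below HIF-1α-KD 2, so the groups overlapped, and the log2 fold change was −1.30 with a standard error of 0.43. Jund (ENSMUSG00000071076, chr8:70698949-70700616, + strand) was at 1133, 2561 and 2295 in Mock, with 605.6, 625.9 and 825.9 in HIF-1α-KD. Its groups did not overlap, its HIF-1α-KD libraries were close to each other, and its log2 fold change was −1.47 with a standard error of 0.30.

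For Junb and Jund, base composition moved with the low value of Mock 1. Both are GC-rich, at 62.4% and 62.7% GC, above 98.85% and 99.02% of the tested genes. Over the 486 tested genes with more than 60% GC, Mock 1 had a median deviation of −0.44 from the mean of the 6 libraries on the log2 scale, against 0.18 in Mock 2 and in Mock 3. After a correction for GC content by library, chosen after seeing the data, the log2 fold change was −1.54 with a standard error of 0.21 for Jund and −1.37 with a standard error of 0.39 for Junb. With it, 8 of 9 members did not overlap between groups, Atf3 being the other, against 10.4% of all tested genes.

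Atf3 encodes a stress-induced factor that pairs with JUN proteins and often represses. Atf3 (ENSMUSG00000026628, chr1:191170296-191218039, − strand) was at 65.25, 48.81 and 74.89 normalized counts in Mock 1 to 3, with 18.5, 26.38 and 86.63 in HIF-1α-KD 1 to 3, from 22 to 75 reads per library, the fewest of the members. Its groups overlapped, since HIF-1α-KD 3 had the highest value of all 6 libraries, and its log2 fold change was −0.81 with a standard error of 0.55. HIF-1α-KD 3 is also the library with the highest macrophage markers, whose part in the value was not tested. Without that library the log2 fold change of Atf3 was −1.45, and without HIF-1α-KD 1 it was −0.36.

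Maff encodes a small MAF protein, a bZIP factor that has no activation domain and pairs with other bZIP factors. Maff (ENSMUSG00000042622, chr15:79346621-79359076, + strand) reached 696.8, 474.7 and 814.2 normalized counts in the 3 Mock libraries, with 260.6, 261.4 and 318.8 in HIF-1α-KD. The groups did not overlap and the HIF-1α-KD libraries were nearly level, between 39.4% and 48.2% of the Mock mean. The log2 fold change was −1.21 with a standard error of 0.23.

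**Figure D1:**
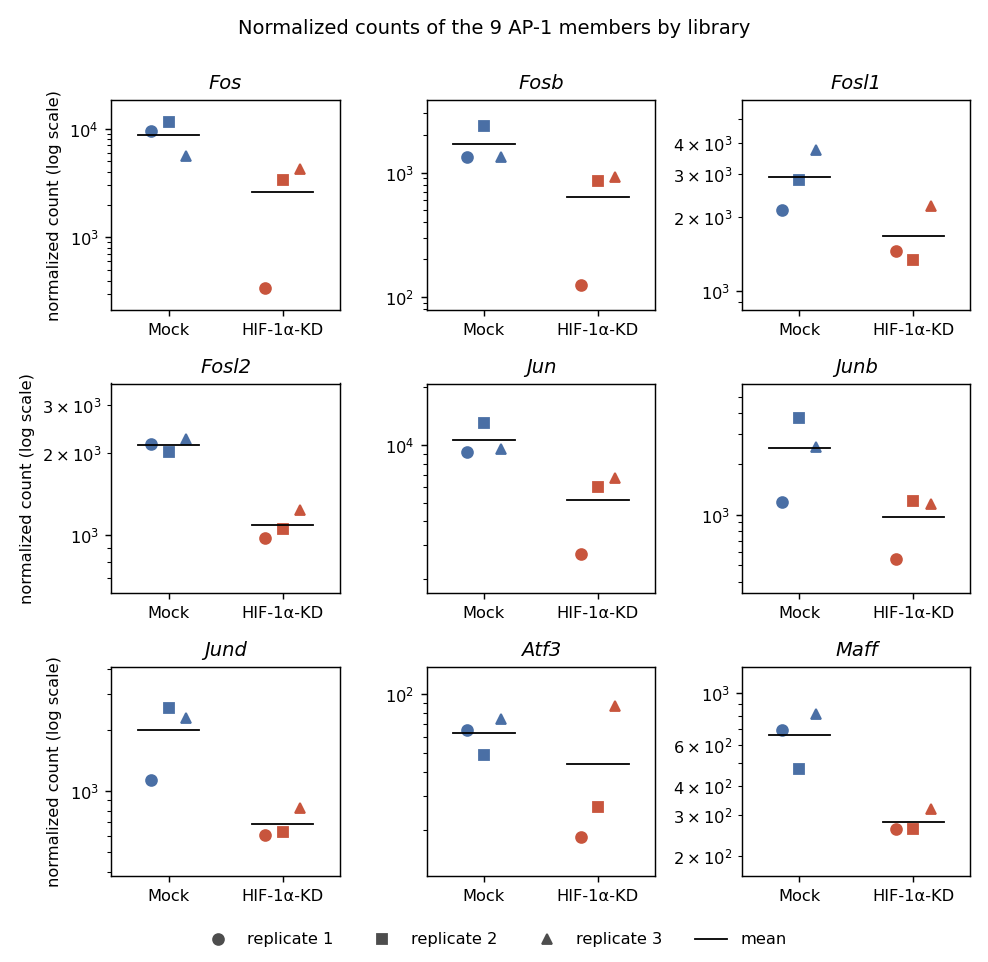
Normalized counts (log scale, vertical axis) of the 9 members in the 3 Mock (blue) and 3 HIF-1α-KD (red) libraries, with symbols for replicate number and a line at the group mean. Fos and Fosb are lowest in HIF-1α-KD 1, at 343.4 and 125.5, Fosl2 and Maff are nearly level within HIF-1α-KD, and the groups of Fosl1, Junb and Atf3 overlap.

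All 9 members had a log2 fold change below 0, as had 47.3% of the tested genes, and the median was −1.21 against 0.02 for all tested genes. In 6 of 9 every HIF-1α-KD library was below every Mock library, a pattern seen in 8.75% of the tested genes. By limma with a mean-variance trend, 1 of 9 members, Fosl2, was lower at an adjusted p under 0.05, beside 0.383% of all tested genes, and 8 of 9 were lower at an unadjusted p under 0.05, beside 5.69%. No member was higher by either rule, beside 0.00832% and 7.04% of all tested genes. DESeq2 on the recovered reads called 5 of 9 lower (Fosl2, Jun, Junb, Jund and Maff), beside 1.56% of the genes it tested, and edgeR called Fosl2 alone, beside 0.391%. After the GC correction limma called Fosl2 and Jund, beside 0.508%. Leaving out any 1 of the 6 libraries left 0 of 9 called by limma, with 5 to 9 of them lower at an unadjusted p under 0.05. Since the members were chosen with this contrast known, nothing is read from these counts.

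The members differed in how their HIF-1α-KD libraries were spread. Fos in HIF-1α-KD 2 was 9.74 times its level in HIF-1α-KD 1, and this ratio was 6.8 for Fosb, 2.24 for Jun and 2.2 for Junb. For Fosl2, Jund and Maff the same ratio was 1.08, 1.03 and 1.00, and for Fosl1 it was 0.919. The library with the lowest level of 8 of the members is thus also the one with the lowest Hif1a level, the exception being Fosl1, which was lowest in HIF-1α-KD 2, the library with the highest Hif1a level of its group. The part of the knockdown in these differences within the group was not tested.

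**Figure D2:**
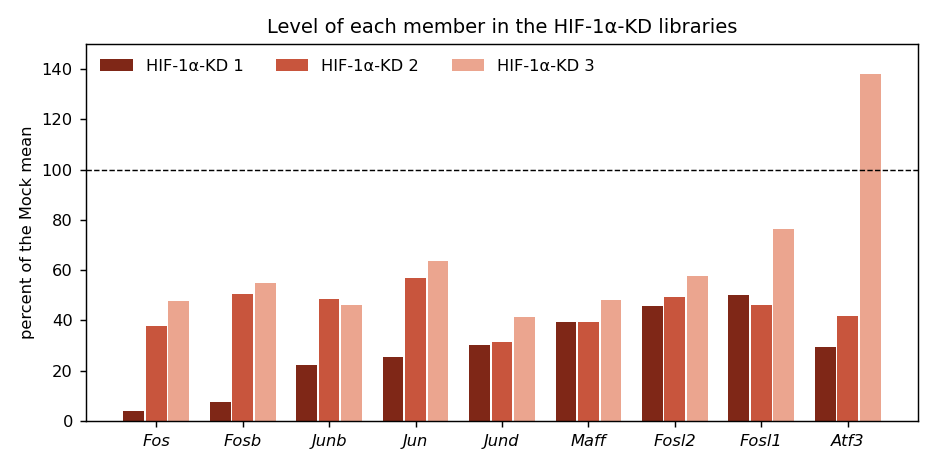
Normalized count of each member in each HIF-1α-KD library as a percent of its Mock mean (vertical axis, dashed line at 100 percent). HIF-1α-KD 1 (dark bars) is at 3.9% for Fos and 7.43% for Fosb, while the bars of Maff and Fosl2 are close to each other and Atf3 reaches 138% in HIF-1α-KD 3.

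Without HIF-1α-KD 1, the log2 fold change moved from −2.32 to −1.17 for Fos and from −1.81 to −0.87 for Fosb. For Jun it moved from −1.13 to −0.71, also by more than 1 standard error. The values of Junb (−0.93), Atf3 (−0.36), Fosl2 (−0.91), Maff (−1.16), Jund (−1.39) and Fosl1 (−0.71) stayed within 1 standard error of those with all libraries. The order of the members by fold change therefore rests on this library: Fos has the lowest value with it and Jund without it.

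**Figure D3:**
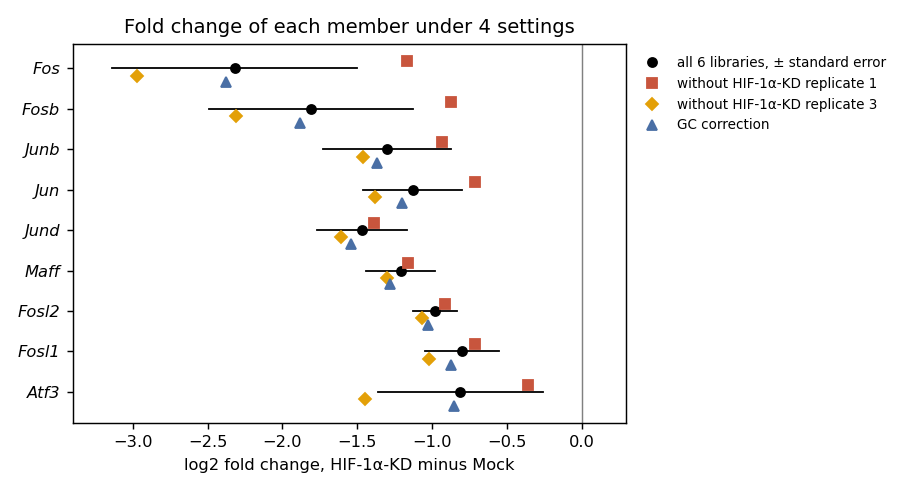
Log2 fold change, HIF-1α-KD minus Mock (horizontal axis), of each member with all 6 libraries (black, bars of 1 standard error), without HIF-1α-KD 1, without HIF-1α-KD 3 and after GC correction. Every point is below 0, and leaving out HIF-1α-KD 1 moves Fos from −2.32 to −1.17 but Fosl2 only from −0.98 to −0.91.

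Covariation of the members within groups does not use the difference that chose them. After each group mean was removed from the log2 values, the 36 pairs of members had a median Pearson correlation of 0.56 over the 6 libraries, and 32 of the 36 were above 0. With all 6 libraries Fos, Fosb and Jun went closely together, with correlations of 0.98 (Fos and Fosb), 0.96 (Fos and Jun) and 0.99 (Fosb and Jun). Fosl2 went with Atf3 at 0.98 and Junb with Jund at 0.84, while the lowest pair, Junb and Maff, was at −0.30. Without HIF-1α-KD 1 the median was 0.14, and the correlation was 0.69 for Fos with Fosb and 0.64 for Fos with Jun, against 0.98 for Fosb with Jun, 0.96 for Fosl2 with Atf3 and 0.92 for Junb with Jund. Without HIF-1α-KD 3 the median over the pairs was 0.26. These are descriptions over few libraries, which share their scaling and, for Junb and Jund, a high GC content.

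Levels of different genes were compared per length, as FPKM (reads per kilobase of transcript, scaled to the reads of the library, as deposited by the authors). In Mock cells Fos had the highest level, with an FPKM of 325 ± 118, then Jun with 133 ± 32.8 and Fosl1 with 67.6 ± 18.5 (SD, n = 3). Atf3 had the lowest, with 1.7 ± 0.307. Between them came Junb with an FPKM of 54.5 ± 29.7, Jund with 27.9 ± 11.2, Fosb with 18.1 ± 7.23, Fosl2 with 14.6 ± 0.41 and Maff with 13.7 ± 3.18. Neighbours in this order overlapped over the libraries from Fosl1 down to Maff, whereas Fos and Jun, Jun and Fosl1, and Maff and Atf3 did not overlap. In HIF-1α-KD cells the FPKM was 101 ± 78.7 for Fos, 67.6 ± 29.5 for Jun and 40.6 ± 12.1 for Fosl1. It was 22 ± 8.63 for Junb, 9.9 ± 1.92 for Jund, 7.74 ± 1.07 for Fosl2, 7.1 ± 5.0 for Fosb, 6.07 ± 0.817 for Maff and 1.25 ± 1.08 for Atf3, and only Fosl1 and Junb, and Maff and Atf3, did not overlap as neighbours.

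The width behind the FPKM differs from the longest coding GENCODE transcript for some members. For Fos it is 1090 bases against 2108, and for Jund 2880 against 1668. On the level per kilobase of that transcript, chosen after seeing the data, Fos was at 168 ± 61.2 in Mock and overlapped Jun at 133 ± 32.8, and Jund was at 48.1 ± 19.4. In HIF-1α-KD cells Jun then came first at 67.6 ± 29.5 and Fos second at 52.5 ± 40.7, again with overlap. The place of Fos above Jun therefore depends on the length used, while Jun was above Fosl1 and Maff or Fosl2 above Atf3 in every Mock library on both scales.

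The make-up of the FOS family differed in HIF-1α-KD 1. Per kilobase of transcript, Fosl1 made up 69.3% of the summed FOS family in that library, against 26.6% and 32.8% in the other HIF-1α-KD libraries and 18.1%, 19.3% and 37.5% in Mock. Fos made up 14.5% there, against 59.0% and 55.2% in HIF-1α-KD and 71.1%, 68.7% and 49.4% in Mock. Outside HIF-1α-KD 1 the shares of Fosl1 and of Fos overlapped between the groups. The JUN family kept its make-up more closely, with Jun at 52.0% to 68.1% of its sum in Mock and at 55.9% to 65.2% in HIF-1α-KD. The FOS sum was 246, 327 and 209 in Mock, with 45.4, 113 and 152 in HIF-1α-KD, and the JUN sum was 164, 321 and 226 in Mock, with 60.9, 123 and 137 in HIF-1α-KD. Neither sum overlapped between the groups, which is a description, since the members were chosen with this contrast known.

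**Figure D4:**
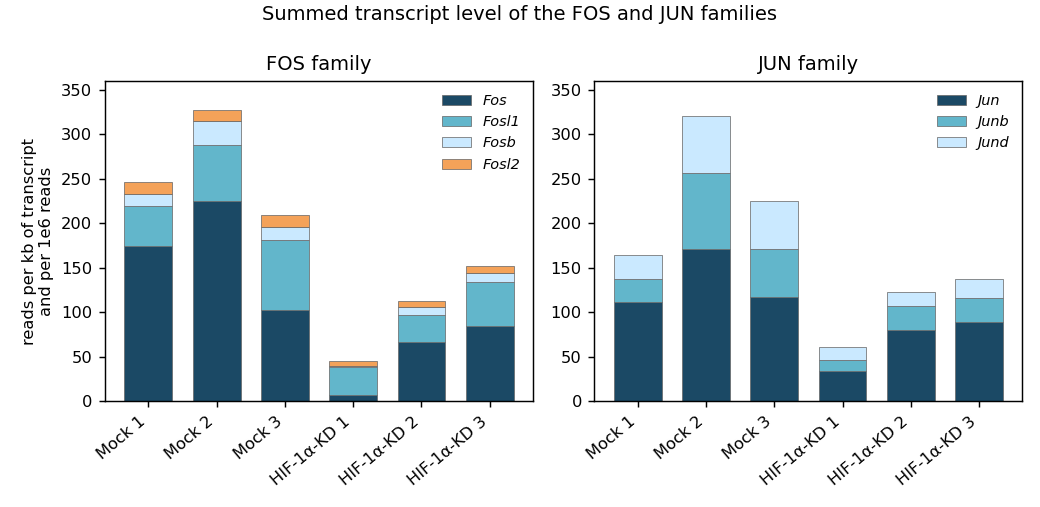
Level per kilobase of the longest coding transcript and scaled to library depth (vertical axis), stacked by member of the FOS family (left) and of the JUN family (right) in each library. The FOS sum in HIF-1α-KD 1 is 45.4, of which Fosl1 makes up 69.3%, whereas Jun makes up 52.0% or more of the JUN sum in all 6 libraries.

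Gene structure was looked at because AU-rich elements, which hold the letters ATTTA as DNA, mark short-lived mRNAs. The 3′ untranslated region of Fos holds these letters 4 times, or 4.91 per kilobase, more than 93.6% of 11387 tested genes, whose median was 1.4. Junb was at 4.12 per kilobase, Maff at 3.28, Jun at 3.24 and Atf3 at 2.53. Jund (1.88), Fosl2 (1.72) and Fosl1 (1.57) were nearer the median, and Fosb, at 0.466, was below it. Jun, Junb and Jund have 1 exon each, as have 2.05% of the longest coding transcripts of the tested genes.

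The wider AP-1 system was followed through lists written from general knowledge but chosen, like the members, with earlier results of these data known. Their counts and p-values are therefore given as descriptions. Of 30 tested bZIP relatives of the members (37 listed), 0 passed an adjusted p under 0.05 by limma, where edgeR also called 0 and DESeq2 1, while 3 were lower and 3 higher at an unadjusted p under 0.05, beside 5.69% and 7.04% of all tested genes. The list's median log2 fold change was −0.01, against 0.02 for all tested genes. Hlf, a PAR bZIP factor linked to circadian output, was at 67.71, 66.99 and 106.3 normalized counts in Mock 1 to 3, with 19.3, 22.78 and 6.931 in HIF-1α-KD 1 to 3, without overlap, and a log2 fold change of −2.34 (SE 0.49, adjusted p = 0.139). Jdp2, a repressor that pairs with JUN proteins, had a log2 fold change of 0.48 (SE 0.19, adjusted p = 0.372). Nfe2l1, a regulator of proteasome genes, had a log2 fold change of 0.56 (SE 0.14, adjusted p = 0.231), and Cebpb, a factor of inflammatory genes, at −0.58 (SE 0.22, adjusted p = 0.345).

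The kinases and factors that act on AP-1 genes and proteins were followed next. Of 32 tested (36 listed), 0 passed the adjusted threshold by limma, where edgeR called 0 and DESeq2 2, and 1 was lower and 3 were higher at an unadjusted p under 0.05, beside 5.69% and 7.04% of all tested genes. Their median log2 fold change was 0.02. Map2k1, the MEK1 kinase of the ERK cascade, reached 4219, 3612 and 3505 normalized counts in the 3 Mock libraries, with 1765, 2398 and 2395 in HIF-1α-KD, without overlap, and a log2 fold change of −0.80 (SE 0.17, adjusted p = 0.139). Map3k5, the stress kinase ASK1, had a log2 fold change of 1.07 (SE 0.30, adjusted p = 0.253). The p38 kinase Mapk11 had a log2 fold change of 0.54 (SE 0.17, adjusted p = 0.291) and the kinase above p38, Map2k3, at 0.37 (SE 0.14, adjusted p = 0.362).

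Of 32 tested genes known as AP-1 targets (39 listed), 2 fell and 0 rose at an adjusted p under 0.05, beside 0.383% and 0.00832% of all tested genes, with 10 lower and 3 higher at an unadjusted p under 0.05, beside 5.69% and 7.04%, and a median log2 fold change of −0.12. Mt2, which encodes a metal-binding metallothionein, fell from 6786, 7652 and 7147 normalized counts to 1456, 2209 and 3088, a log2 fold change of −1.74 (SE 0.25, adjusted p = 0.0281). Hmox1, the heme oxygenase of oxidative stress, fell from 11590, 6914 and 7116 to 1757, 1433 and 2982, a log2 fold change of −2.08 (SE 0.29, adjusted p = 0.0281). Neither gene was called when any 1 Mock library or HIF-1α-KD 2 was left out. Both genes also answer to other factors, such as those for metals and for oxidative stress. Dusp1, a phosphatase that switches off MAP kinases, had a log2 fold change of −2.51 (SE 0.53, adjusted p = 0.142).

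Other early response genes stood nearest to the members. Of 32 tested (37 listed), 2 fell and 0 rose at an adjusted p under 0.05, beside 0.383% and 0.00832% of all tested genes, and 19 were lower and 0 higher at an unadjusted p under 0.05, beside 5.69% and 7.04%. The median log2 fold change was −0.88. In 18 of the 32 every HIF-1α-KD library was below every Mock library, beside 8.75% of all tested genes. Ier3, a stress-induced survival gene, fell from 4406, 5029 and 4357 normalized counts to 690.1, 1433 and 1320, a log2 fold change of −2.07 (SE 0.26, adjusted p = 0.0242). Per1, a clock gene that is also induced early, fell from 859.3, 1388 and 707.9 to 242.9, 257.8 and 365, a log2 fold change of −1.73 (SE 0.28, adjusted p = 0.0446). Neither gene was called when Mock 1, Mock 2, Mock 3, HIF-1α-KD 2 or HIF-1α-KD 3 was left out. Rhob, a small GTPase, had a log2 fold change of −1.50 (SE 0.28, adjusted p = 0.0934) and Ier2 at −1.45 (SE 0.29, adjusted p = 0.119).

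Tissue dissociation induces both early response genes and heat shock genes, so the latter were set beside the members. Of 14 tested heat shock and related genes (15 listed), 0 passed the adjusted threshold by limma, where edgeR called 0 and DESeq2 1, and 2 were lower and 3 higher at an unadjusted p under 0.05, beside 5.69% and 7.04% of all tested genes. Their log2 fold changes ran from −1.07 to 0.98, with a median of 0.07. In 3 of the 14 every HIF-1α-KD library was below every Mock library, and in 2 above, beside 8.75% and 10.4% of all tested genes. Dnajb1, a heat-induced co-chaperone, had a log2 fold change of −0.70 (SE 0.20, adjusted p = 0.258) and Dnajb4 at −0.54 (SE 0.21, adjusted p = 0.354). Hsph1, a large heat shock protein, had a log2 fold change of 0.98 (SE 0.22, adjusted p = 0.161) and Dnaja1 at 0.45 (SE 0.14, adjusted p = 0.276). The median of the members was −1.21, and the part of dissociation in the members' values was not tested.

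**Figure D5:**
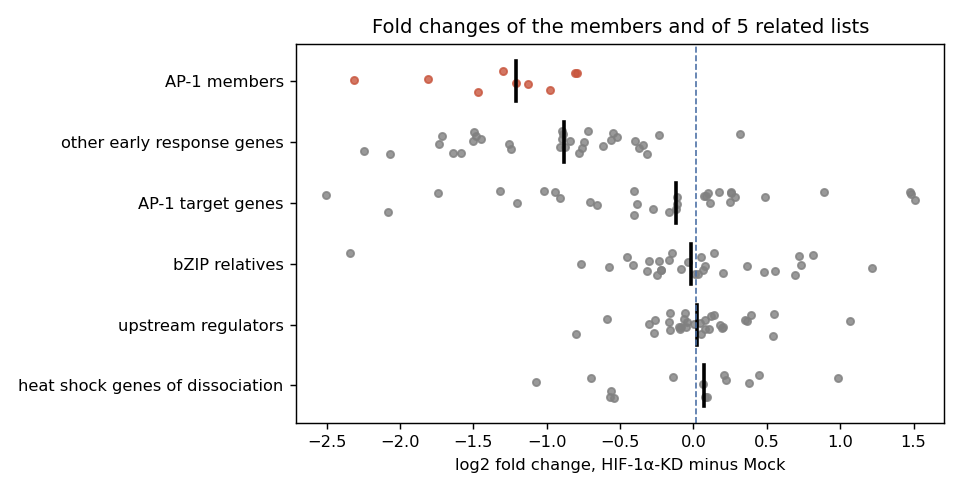
Log2 fold change, HIF-1α-KD minus Mock (horizontal axis), of each tested gene of the 9 members (red) and of 5 related lists (grey), with a black bar at each median and a dashed line at the median of all tested genes, 0.02. The members (median −1.21) and the other early response genes (median −0.88) lie to the left, while the medians of the bZIP relatives, the upstream regulators, the AP-1 targets and the heat shock genes are between −0.12 and 0.07.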

How the data were processed

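RNA of sorted MC-38GFP tumor cells was sequenced in 6 libraries, grouped by their labels into 3 Mock and 3 HIF-1α-KD. According to the methods, the authors trimmed the reads, mapped these by STAR, took gene counts from featureCounts and ran DESeq2, and the submitters' processing notes also list edgeR. The notes give the build GRCm38, whereas the methods name the human GRCh38, and the genes carry mouse Ensembl identifiers. The deposited normalized counts are a signal, each count divided by 1 factor per library. The authors also deposited FPKM values, the transcript width in bases and the GC content as a fraction. The authors' own log2 ratio, p-value, false discovery rate and cluster columns were not used.

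Reads were recovered by removing the factor, and 100% of values up to 300 reads were whole within 0.02. Genes were filtered with filterByExpr of edgeR 4.0.16 (minimum count of 10), and limma 3.58.1 with a mean-variance trend was fitted to log2 of the normalized count plus 1 over all 12014 genes, with two-sided p-values adjusted by Benjamini and Hochberg. The edgeR quasi-likelihood test and DESeq2 1.42.0 were run on the recovered reads. The limma step was tested on simulated data. Other alternatives were the scaling, the filter, the pseudocount (0.1 and 10), a block for replicate number, each library left out and, added after seeing the data, a GC correction by loess (span of 0.5) and the length of the GENCODE transcript. The members and all gene lists were chosen with earlier results of these data known. The genes named are the 9 members, Hif1a, every gene of a list at an adjusted p under 0.05 with the smallest unadjusted p filling each list to 4, and the 5 genes most like the members on either of 2 measures, except that 2 genes this rule names are not reported here. Genes were placed by GENCODE for GRCm38, and promoters came from RefSeq. R 4.3.3, Python 3.11.15, pandas 2.3.3, numpy 2.4.6 and matplotlib 3.10.9 were used.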

Additional observations from a re-analysis of the deposited data

How the results depend on the processing

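All 117 log2 fold changes of the members under the 13 alternatives that can move them were below 0. The main fit called 46 genes lower and 1 higher, of which 1 lower gene, Fosl2, was a member, 2 were AP-1 targets and 2 were other early response genes. Without the mean-variance trend 1 gene was lower and 0 higher, with 0 members, 0 targets and 0 early response genes. DESeq2 called 187 lower and 96 higher, with 5 members, 1 bZIP relative, 2 upstream regulators, 7 targets, 12 early response genes and 1 heat shock gene. Higher calls were 0 by edgeR and 0 under TMM scaling. Scaling by library size called 0 members and 1 early response gene. The GC correction called 2 genes higher and 2 members, Fosl2 and Jund. Leaving out 1 library gave 0 to 32 lower and 0 to 6 higher genes, 0 members, 0 to 2 targets and 0 to 1 early response genes. Without HIF-1α-KD 2 or Mock 3, 0 genes were lower, and without Mock 1, 2. Without HIF-1α-KD 1 and without HIF-1α-KD 3 the median correlation among members within groups was 0.14 and 0.26, and over all libraries left out in turn it was 0.14 to 0.70. The median log2 fold change of the AP-1 targets minus that of all genes was −0.14. It was −0.03 without HIF-1α-KD 1 and −0.27 without HIF-1α-KD 3. Per kilobase of the longest coding transcript the level of Fos in Mock was 168 in place of 325. The cause of these differences was not tested.

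With a replicate block, 0 genes were lower and 0 higher, with 0 members, 0 targets and 0 early response genes. Libraries of the same number correlated in their deviations at -0.139, -0.123 and 0.023, and those of different number at -0.072 to 0.162. These values cannot settle whether the numbers pair the libraries, because the mean of only 3 libraries was removed in each group.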

Other observations

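Over the 6 libraries, the genes whose log2 values went most closely with the mean of the standardized values of the members were Ier2 (Pearson r = 0.993), Gpr35 (0.992), Foxc2 (0.990), Kcnu1 (0.983) and Ddah1 (0.983), and 39 of 12005 other tested genes had r over 0.95. Ier2, an immediate early gene, was at 1346, 2056 and 1762 normalized counts in Mock 1 to 3, with 403.8, 664.3 and 886 in HIF-1α-KD 1 to 3. Gpr35, a G protein-coupled receptor, was at 77.56, 89 and 108.7 in Mock, with 16.09, 26.38 and 50.82 in HIF-1α-KD. Foxc2, a forkhead factor of mesenchymal and vascular cells, was at 82.48, 115.8 and 137.7 in Mock, with 24.93, 38.37 and 54.29 in HIF-1α-KD. In these genes HIF-1α-KD 1 was the lowest library, and every HIF-1α-KD library was below every Mock library, as in 8.75% of all tested genes. Since the genes were picked for following the members over all 6 libraries, nothing is read from this.

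With group means removed, genes most like the members included Magea10 (r = 0.998), Cyb5rl (0.996), Golga5 (0.995) and Map3k1 (0.995), and 139 of 12005 genes had r over 0.95. Magea10 was low, at 16, 29.67 and 36.24 normalized counts in Mock, with 0.8043, 5.995 and 20.79 in HIF-1α-KD 1 to 3. Map3k1, the kinase MEKK1 that acts above JNK and was among the upstream regulators, reached 126.8, 165.6 and 187.2 normalized counts in the 3 Mock libraries, with 84.45, 128.3 and 210.2 in HIF-1α-KD, so its groups overlapped. With 6 libraries such correlations are descriptions, and all genes share the scaling of each library.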
